A study of Mus musculus with 18 samples.

Results

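Transcripts of 10 genes of the Paneth cell, the antimicrobial secretory cell at the base of the small intestinal crypt, were followed across 18 RNA sequencing libraries of mouse ileal epithelium. They were Lyz1, Mmp7, Itln1, Ang4, Mptx2, Defa17, Defa22, Defa24, Defa30 and Habp2, chosen by gene symbol, and all 10 of 10 were found among the 47729 genes of each count table. The libraries came from epithelial cells sorted by flow cytometry from the ileum of female mice in 3 groups of 6: pregnant, pseudopregnant and virgin. Pseudopregnancy is a luteal hormonal state of mice that carry no embryos. By its title the study concerns how the mother's intestine grows while she carries and nurses young, and no lactating group was analysed here. The labels give no strain, genotype, age, day of pregnancy, way of inducing pseudopregnancy, sorting marker or batch. All groups were on the same maintenance chow, RM1. The labels do not say that the 6 libraries of a group came from separate animals, so the p-values measure only the spread between these libraries.

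Paneth cells fill their granules with alpha-defensins, small cationic peptides that disrupt bacterial membranes, and with lysozyme, which cuts bacterial cell walls. In the mouse small intestine the alpha-defensins are made as inactive precursors by a large family of near-identical genes (Defa), and the metalloproteinase matrilysin, the product of Mmp7, cuts them into their active form. Paneth cells also supply niche signals such as Wnt3 and Notch ligands to the neighbouring stem cells. Of the other members, Itln1 encodes intelectin-1, a lectin that binds sugars of microbial surfaces, and Ang4 encodes a microbicidal ribonuclease of the angiogenin family. Mptx2 encodes a mucosal pentraxin, and Habp2 encodes a hyaluronan-binding serine protease known from plasma.

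Of the 4 defensins, Defa17, Defa24 and Defa30 differ from each other at 4 to 12 bases, and Defa22 from them at 51 to 58. This bears on how far their counts can be told apart. Their coding sequences, derived from the GENCODE M21 transcripts on GRCm38, are 282 bases each, and capitals mark the 59 positions at which the 4 are not all alike. The genes lie on the plus strand of chromosome 8, Defa17 at chr8:21655780-21656735, Defa22 at chr8:21162277-21163249, Defa24 at chr8:21734494-21735471 and Defa30 at chr8:21134642-21135598.
Defa17: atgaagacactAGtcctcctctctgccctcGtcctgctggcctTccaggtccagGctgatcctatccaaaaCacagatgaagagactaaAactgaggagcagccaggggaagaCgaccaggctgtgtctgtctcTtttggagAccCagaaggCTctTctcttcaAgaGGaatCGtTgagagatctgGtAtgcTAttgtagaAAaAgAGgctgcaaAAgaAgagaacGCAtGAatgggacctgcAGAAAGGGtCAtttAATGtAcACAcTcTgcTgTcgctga
Defa22: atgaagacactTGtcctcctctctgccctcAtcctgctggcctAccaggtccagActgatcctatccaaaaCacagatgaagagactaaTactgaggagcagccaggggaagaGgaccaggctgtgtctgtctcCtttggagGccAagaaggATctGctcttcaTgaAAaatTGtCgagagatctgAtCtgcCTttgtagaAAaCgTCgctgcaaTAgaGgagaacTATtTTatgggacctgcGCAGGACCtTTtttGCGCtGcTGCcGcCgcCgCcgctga
Defa24: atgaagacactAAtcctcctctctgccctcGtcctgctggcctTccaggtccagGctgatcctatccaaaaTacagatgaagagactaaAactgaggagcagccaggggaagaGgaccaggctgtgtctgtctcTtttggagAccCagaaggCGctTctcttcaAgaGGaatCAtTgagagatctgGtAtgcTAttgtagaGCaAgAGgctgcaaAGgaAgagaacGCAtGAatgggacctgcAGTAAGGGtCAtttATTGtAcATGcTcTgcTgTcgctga
Defa30: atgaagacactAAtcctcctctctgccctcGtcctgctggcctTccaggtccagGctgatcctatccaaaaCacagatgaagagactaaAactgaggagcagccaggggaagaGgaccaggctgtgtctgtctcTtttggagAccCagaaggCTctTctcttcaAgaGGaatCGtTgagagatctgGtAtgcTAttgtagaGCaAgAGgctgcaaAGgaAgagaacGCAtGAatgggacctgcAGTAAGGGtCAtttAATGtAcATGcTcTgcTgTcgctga
The first coding exon holds 17 of these positions among 172 bases and the second holds 42 among 110 bases, so the 4 sequences part mostly in the second. Defa24 and Defa30 were identical at 98.58% of positions, Defa17 and Defa30 at 97.16%, and Defa22 was at most 81.91% identical to the other 3. The coding sequence of Defa17 was the same, base for base, as that of Defa3, and Defa22 was 99.29% identical to Defa21.

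Reads from such copies cannot always be assigned to 1 gene. Of the 100-base windows of the Defa17 transcript, 90.6% occurred in another gene's transcript, against 40.31% for Defa22, 0.33% for Defa30 and 0% for Defa24. At 50 bases the shares were 91.95% for Defa17, 74.86% for Defa22, 52.44% for Defa30 and 28.11% for Defa24. Read length and the treatment of multiply aligned reads are unstated in the labels and headers, so single-defensin values, those of Defa17 and Defa22 above all, are uncertain, and every Defa gene was also summed into 1 row. Outside the family, Lyz1 shared 16.06% of its 50-base windows with Lyz2, the myeloid lysozyme gene, and Mptx2 shared 17.99% with Mptx1. Ang4 (4.7%), Itln1 (0.97%), Mmp7 (0%) and Habp2 (0%) had few or no such windows.

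The promoters were compared by their letters, which do not depend on the counts. RefSeq windows (GRCm38.p6) of 300 bases, from 250 before a gene's start to 50 after it, were matched for 8 of the 10 members, and Defa17 and Defa24 had none. Those of Defa30 (chr8:21134400-21134699, plus strand) and Defa22 (chr8:21162027-21162326, plus strand) are shown because they represent both branches of the defensins above. Capitals mark TCAAAG, the reverse complement of CTTTGA, the core recognised by TCF/LEF factors of the Wnt pathway.
Defa30: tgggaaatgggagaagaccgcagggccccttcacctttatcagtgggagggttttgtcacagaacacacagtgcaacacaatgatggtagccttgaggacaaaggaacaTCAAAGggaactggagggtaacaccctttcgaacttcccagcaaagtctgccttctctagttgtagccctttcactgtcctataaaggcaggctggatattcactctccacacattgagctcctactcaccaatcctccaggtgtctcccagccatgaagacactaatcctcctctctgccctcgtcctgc
Defa22: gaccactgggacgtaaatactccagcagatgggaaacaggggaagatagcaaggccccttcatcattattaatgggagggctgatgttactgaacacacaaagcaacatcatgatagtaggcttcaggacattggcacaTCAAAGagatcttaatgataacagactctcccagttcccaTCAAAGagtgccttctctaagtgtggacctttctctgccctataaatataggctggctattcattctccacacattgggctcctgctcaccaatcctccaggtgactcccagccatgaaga
On both strands, CTTTGA was found in 13 of the 16 Defa promoters in the table, against 16.0% of all 32851 promoters. TATAAA, the core of the TATA box, was in 15 of the 16, against 13.62% of all. Of the 8 members with a window, Lyz1, Itln1, Mptx2, Ang4 and Habp2 had neither of these letters on either strand, and Mmp7, Defa30 and Defa22 had both. These matches describe the letters of the windows only.

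Libraries held 24.9 to 37.3 M counts each, with a median of 31.5 M. Epcam, which marks epithelium, stood at 1748 to 3150 CPM (a gene's counts per M counts of the library), and the ileal genes Fabp6 and Slc10a2 stood at 1835 to 12847 and 71.9 to 302 CPM. The leukocyte gene Ptprc stood at 0.21 to 0.664 CPM. The 11 leukocyte markers summed to 14.3 to 37.7 CPM in pregnant, 19.6 to 36.2 in pseudopregnant and 12.8 to 42.1 in virgin libraries, and Lyz2, which is among them, stood at 7.59 to 34.5 CPM. The third replicate of each group stood apart in a like way. Its absorptive enterocyte score, the mean deviation of 20 marker genes on the log2 scale, was above the other 5 of its group, at 0.74 in pregnant, 0.49 in pseudopregnant and 0.66 in virgin libraries. Its proliferation score was below the other 5, at -0.74, -0.59 and -0.66 in the same order.

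The edgeR quasi-likelihood test called 0 of the 10 members at an adjusted p under 0.05 in pregnant against virgin, pseudopregnant against virgin and pregnant against pseudopregnant libraries. Over all 14675 genes tested it also called 0, or 0% of them, in each comparison. At an unadjusted p under 0.05, 0 of 10 members passed in each, against 3.68%, 9.37% and 2.35% of all genes in that order. DESeq2 and limma-voom also called 0 members in each comparison. The members' groups of 6 overlapped for 10 of 10 in every comparison, where 0.0681%, 0.0681% and 0.0273% of all genes did not overlap. In bulk libraries, fewer Paneth cells and less RNA per Paneth cell cannot be told apart. Levels below are CPM scaled by the trimmed mean of M-values (TMM).

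The defensins were the most abundant of the members per length. Defa24 averaged 9641 CPM per kilobase of exon over the 18 libraries, Defa17 6151, Defa22 5702 and Defa30 4899. Lyz1 followed with 2814 and Itln1 with 1633 CPM per kilobase. Ang4 stood at 550, Mptx2 at 303, Mmp7 at 120 and Habp2 at 4.41 CPM per kilobase, so the members spanned more than 3 orders of magnitude.

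Defa24 ran from 1775 through a median of 3145 to 9251 CPM in pregnant libraries, from 2372 through 3181 to 4852 in pseudopregnant libraries and from 769 through 4493 to 8754 in virgin libraries. Its lowest library was the third replicate in every group, and its highest were pregnant replicate 1, pseudopregnant replicate 1 and virgin replicate 2, so the groups overlapped widely. The fold change was -0.09 (SE 0.42, log2) in pregnant against virgin libraries and -0.43 (SE 0.42) in pseudopregnant against virgin libraries, with edgeR adjusted p of 0.97 and 0.62. Between pregnant and pseudopregnant libraries it was 0.34 (SE 0.42, edgeR adjusted p = 0.92), and -0.033 without pregnant replicate 1.

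Defa30 ran from 823 through 1481 to 5001 CPM in pregnant, from 1123 through 1450 to 2389 in pseudopregnant and from 325 through 2038 to 4781 in virgin libraries. It had the widest range of the 10 members, 15.4-fold between virgin replicate 3 and pregnant replicate 1. Defa17 ran from 1105 through 1912 to 5942 CPM in pregnant, from 1487 through 1671 to 3076 in pseudopregnant and from 467 through 2762 to 5286 in virgin libraries. Defa22 ran from 1096 through 1933 to 5408 CPM in pregnant, from 1444 through 1647 to 3145 in pseudopregnant and from 516 through 2556 to 5952 in virgin libraries. All 3 had the same lowest and highest library in each group as Defa24, and their groups overlapped. Against virgin libraries the pregnant ones differed by -0.03 (SE 0.46) for Defa30, -0.04 (SE 0.43) for Defa17 and -0.18 (SE 0.43) for Defa22 on the log2 scale. The pseudopregnant libraries differed from virgin ones by -0.48 (SE 0.46), -0.51 (SE 0.43) and -0.60 (SE 0.43) for the same genes, and edgeR's adjusted p was at least 0.53 in both comparisons. Without virgin replicate 2 the differences of pseudopregnant from virgin libraries were -0.10 for Defa30, -0.22 for Defa17, -0.26 for Defa22 and -0.15 for Defa24.

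**Figure D1:**
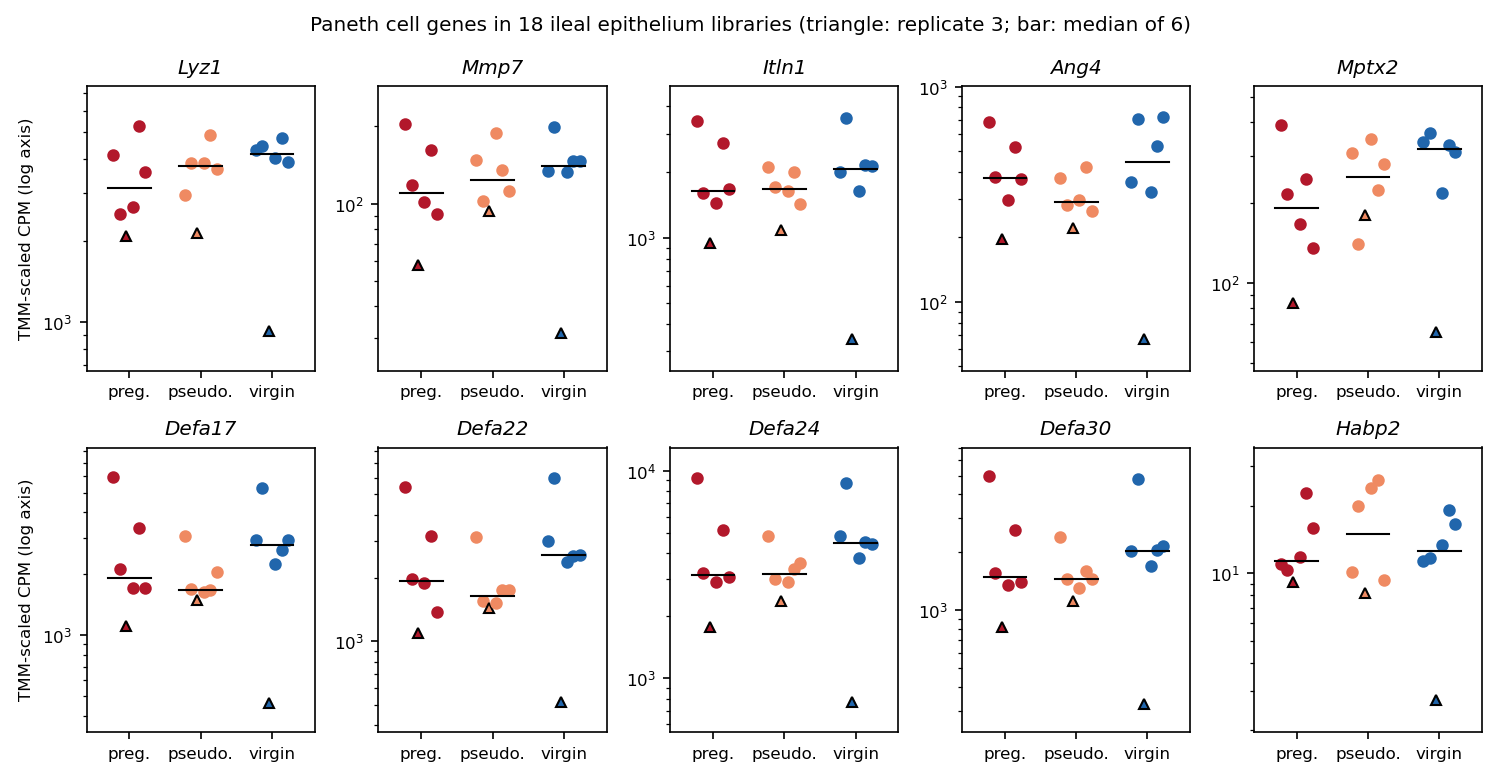
TMM-scaled CPM (log axis) of the 10 Paneth cell genes, 1 point a library, for 6 pregnant, 6 pseudopregnant and 6 virgin libraries, with bars at the medians and triangles for replicate 3. Virgin replicate 3 is the lowest of the 18 libraries for every gene, from 2.74 CPM for Habp2 to 929 CPM for Lyz1, and the groups overlap in all panels.

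Lyz1, the lysozyme gene of mouse Paneth cells (chr10:117287797-117292868, minus strand), ran from 2084 through 3112 to 5285 CPM in pregnant libraries, from 2133 through 3764 to 4873 in pseudopregnant libraries and from 929 through 4176 to 4757 in virgin libraries. In the virgin group 5 libraries lay between 3898 and 4757 CPM, and replicate 3 lay far below them. The highest libraries were pregnant replicate 5, pseudopregnant replicate 5 and virgin replicate 5, and the groups overlapped. The fold change was -0.15 (SE 0.32) in pregnant against virgin, -0.07 (SE 0.32) in pseudopregnant against virgin and -0.08 (SE 0.32) in pregnant against pseudopregnant libraries (edgeR adjusted p = 0.94, 0.92 and 0.97 in that order). The 95% interval of pregnant against virgin ran from 0.567 to 1.44-fold.

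Mmp7, the activating protease (chr9:7692090-7699585, plus strand), ran from 57.8 through 110 to 205 CPM in pregnant, from 94.0 through 123 to 188 in pseudopregnant and from 31.4 through 140 to 200 in virgin libraries. The third replicate was lowest in every group, and the groups overlapped. Its fold change was -0.11 (SE 0.33) in pregnant against virgin, -0.02 (SE 0.33) in pseudopregnant against virgin and -0.08 (SE 0.33) in pregnant against pseudopregnant libraries, with edgeR adjusted p of 0.96, 0.98 and 0.97 in that order.

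Itln1 (chr1:171518122-171535294, minus strand) ran from 947 through 1637 to 3414 CPM in pregnant, from 1086 through 1669 to 2100 in pseudopregnant and from 342 through 2060 to 3545 in virgin libraries. Its highest libraries were those of the defensins. Pregnant and virgin means lay at 1964 ± 913 and 1967 ± 1030 CPM (SD, n = 6 each), and the fold change of -0.0022 (SE 0.38, edgeR adjusted p = 0.999) became 0.0054 with DESeq2's size factors. In pseudopregnant against virgin libraries it was -0.25 (SE 0.38, edgeR adjusted p = 0.74), and -0.011 without virgin replicate 2.

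Ang4 (chr14:51763878-51773590, minus strand) ran from 196 through 376 to 684 CPM in pregnant, from 221 through 289 to 424 in pseudopregnant and from 66.8 through 444 to 718 in virgin libraries. All 6 pseudopregnant libraries lay below the virgin median, and virgin replicate 3 lay below all of them. The fold change was -0.14 (SE 0.38) in pregnant against virgin and -0.54 (SE 0.39) in pseudopregnant against virgin libraries, with edgeR adjusted p of 0.95 and 0.53. Between pregnant and pseudopregnant libraries it was 0.40 (SE 0.38, edgeR adjusted p = 0.92), with 5 of 6 pregnant libraries above the pseudopregnant median.

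Mptx2 (chr1:173274382-173277777, minus strand) ran from 84.1 through 191 to 392 CPM in pregnant, from 140 through 251 to 347 in pseudopregnant and from 65.2 through 319 to 364 in virgin libraries. It was the only member whose lowest pseudopregnant library was not replicate 3 but replicate 2. It had the most negative fold change of the 10 members in pregnant against virgin libraries, -0.39 (SE 0.36, edgeR adjusted p = 0.89), with 5 of 6 virgin libraries at 217 CPM or more. In pseudopregnant against virgin libraries it was -0.14 (SE 0.36, edgeR adjusted p = 0.86), and in pregnant against pseudopregnant ones -0.25 (SE 0.36, edgeR adjusted p = 0.92).

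Habp2 (chr19:56287137-56320822, plus strand) was the least abundant member, with 79 to 923 reads a library. It ran from 9.16 through 11.4 to 22.9 CPM in pregnant, from 8.17 through 14.99 to 25.9 in pseudopregnant and from 2.74 through 12.6 to 19.1 in virgin libraries. In the pseudopregnant group replicates 2, 4 and 5 stood at 19.9, 24.0 and 25.9 CPM, and replicates 1, 3 and 6 at 8.17 to 10.1 CPM. Its fold changes against virgin libraries were positive, 0.11 (SE 0.37) for pregnant and 0.38 (SE 0.37) for pseudopregnant libraries, with edgeR adjusted p of 0.96 and 0.61. In pregnant against pseudopregnant libraries it was -0.27 (SE 0.37, edgeR adjusted p = 0.92), and without the third replicates the value of pregnant against virgin was -0.0030. With the villus-minus-crypt score, the difference of the absorptive enterocyte and proliferation scores, as covariate it was 0.70 (edgeR adjusted p = 0.98, unadjusted p = 0.0235).

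**Figure D2:**
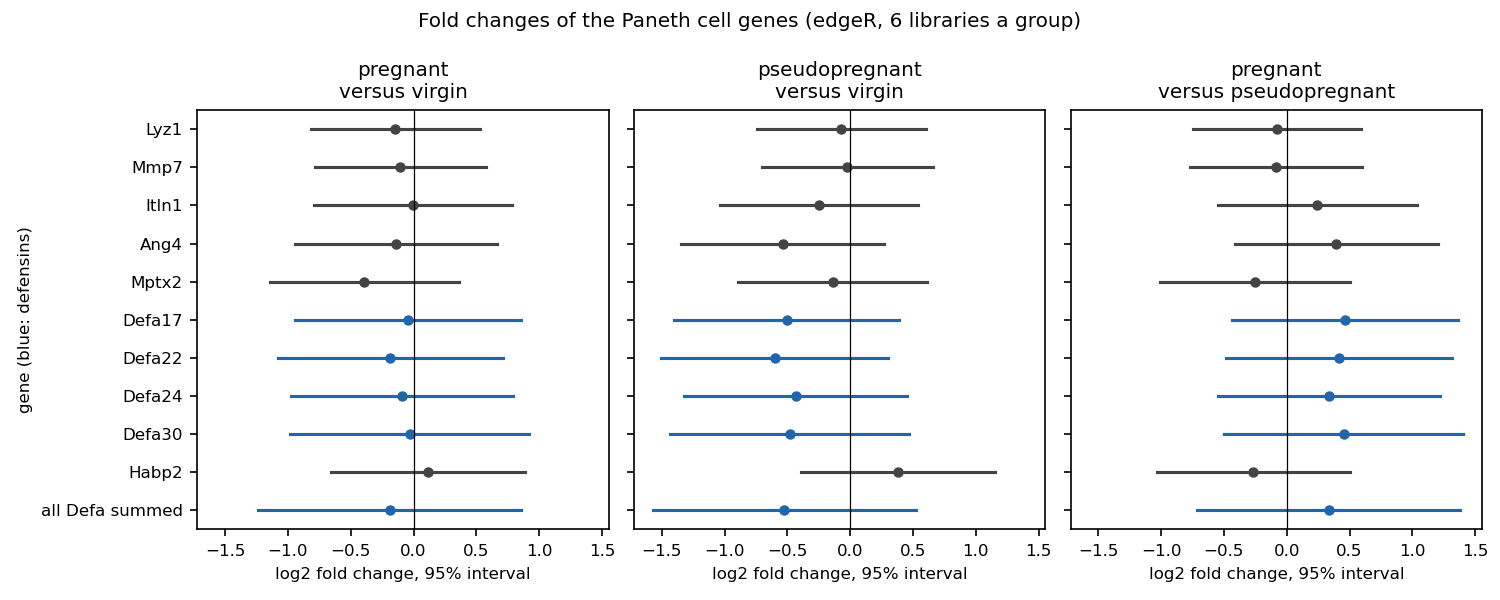
Log2 fold changes with 95% intervals from edgeR for the 10 members and the summed Defa row, in 3 comparisons with 6 libraries a group. Every interval includes 0, and the defensins (blue) lie left of 0 in pseudopregnant against virgin libraries, from -0.60 to -0.43 for the 4 members.

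Set side by side, 9 of 10 members had negative fold changes in pregnant against virgin libraries, or 8 of 10 with DESeq2's size factors, with a median of -0.10, against a median of -0.01 over all genes. In pseudopregnant against virgin libraries 9 of 10 were negative, with a median of -0.34, against 0.0045 over all genes. In pregnant against pseudopregnant libraries 6 of 10 were positive, with a median of 0.29, against -0.01 over all genes. DESeq2 gave medians near these, -0.09, -0.35 and 0.31 in the same order, but limma-voom and a covariate moved them. With limma-voom 6 of 10 members were positive in pregnant against virgin libraries (median 0.02) and 3 of 10 in pseudopregnant against virgin libraries (median -0.09). With a villus-minus-crypt score as covariate 10 of 10 were positive in pregnant against virgin libraries, with a median of 0.37, and 5 of 10 in pseudopregnant against virgin libraries, with a median of 0.01. These comparisons share their virgin, pregnant or pseudopregnant libraries, so the 3 medians are not independent. The median SE of a member's fold change was 0.38 and that of all genes 0.20, and this SE includes the spread between libraries. Within groups the members' log2 SD ran from 0.64 for Lyz1 to 0.93 for Defa30 (median 0.82), against a median of 0.31 over 11492 genes with a mean of at least 2 CPM.

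Single libraries set the direction of several of these values. Without virgin replicate 2 the members' median in pregnant against virgin libraries was 0.14 with 8 of 10 positive, without pregnant replicate 3 it was 0.05 with 7 of 10 positive, and without pregnant replicate 1 it was -0.40. Without virgin replicate 3 the median was -0.31 in that comparison and -0.56 in pseudopregnant against virgin libraries, where 2 of 10 members then had an unadjusted p under 0.05 and 0 an adjusted one. Without virgin replicate 2 the median of pseudopregnant against virgin was -0.08. Without pregnant replicate 1 that of pregnant against pseudopregnant was -0.0087.

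The alpha-defensin family, taken as the genes with a Defa symbol, took a large part of these libraries. Of 39 annotated Defa symbols, 22 protein-coding and 17 pseudogenes, 28 had a mean of at least 2 CPM and 18 protein-coding genes had at least 100 CPM. Together they held from 0.782% of counts in virgin replicate 3 (exact 95% interval 0.779 to 0.785%, counting error only) to 8.74% in virgin replicate 2 (8.73 to 8.75%). Whether multiply aligned reads were dropped or counted for each gene is unstated. These shares may therefore be too low or too high, which the intervals do not cover. By group they held 4.08% ± 2.26 in pregnant, 3.37% ± 0.768 in pseudopregnant and 4.74% ± 2.54 in virgin libraries (SD, n = 6 each). Defa2 and Defa20, at 11166 and 10648 CPM per kilobase, stood above Defa24 in level, and 5 genes (Defa2, Defa20, Defa24, Defa33 and Defa32) held 51.4% of the family's counts on average.

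The summed Defa row ran from 18794 through 31156 to 89490 CPM in pregnant, from 25972 through 29849 to 54122 in pseudopregnant and from 7996 through 46369 to 97207 in virgin libraries. The groups overlapped, with the same extreme libraries as Defa24. Its fold change was -0.19 (SE 0.50, 95% interval -1.24 to 0.86) in pregnant against virgin libraries and -0.52 (SE 0.50, -1.57 to 0.53) in pseudopregnant against virgin libraries, with edgeR adjusted p of 0.95 and 0.61. In pregnant against pseudopregnant libraries it was 0.33 (SE 0.50, -0.71 to 1.38, edgeR adjusted p = 0.92). Of the 22 protein-coding Defa genes 18 were negative in pregnant against virgin, 22 were negative in pseudopregnant against virgin, and 22 were positive in pregnant against pseudopregnant libraries. None of them had an unadjusted p under 0.05 in any of the 3 comparisons, and they may share reads, so these 22 are not treated as independent measurements. The pseudogene Defa-ps4 was at -4.50 in pregnant against virgin libraries (edgeR unadjusted p = 0.0097, adjusted p = 0.89). It was at -3.63 against pseudopregnant ones (edgeR unadjusted p = 0.0276, adjusted p = 0.92). The pseudogenes Defa-ps17 and Defa-ps16 were at 2.28 and 2.58 in pregnant against virgin libraries (edgeR unadjusted p = 0.139 and 0.062, adjusted p = 0.89 for both). The values of Defa-ps4 and Defa-ps16 were the lowest and highest of all 14675 genes tested in that comparison. Without virgin replicate 2 the family's value in pregnant against virgin libraries was 0.14, and without pregnant replicate 1 that in pregnant against pseudopregnant libraries was -0.017. In pseudopregnant against virgin libraries it was -0.21 without virgin replicate 2 and -0.26 with limma-voom.

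**Figure D3:**
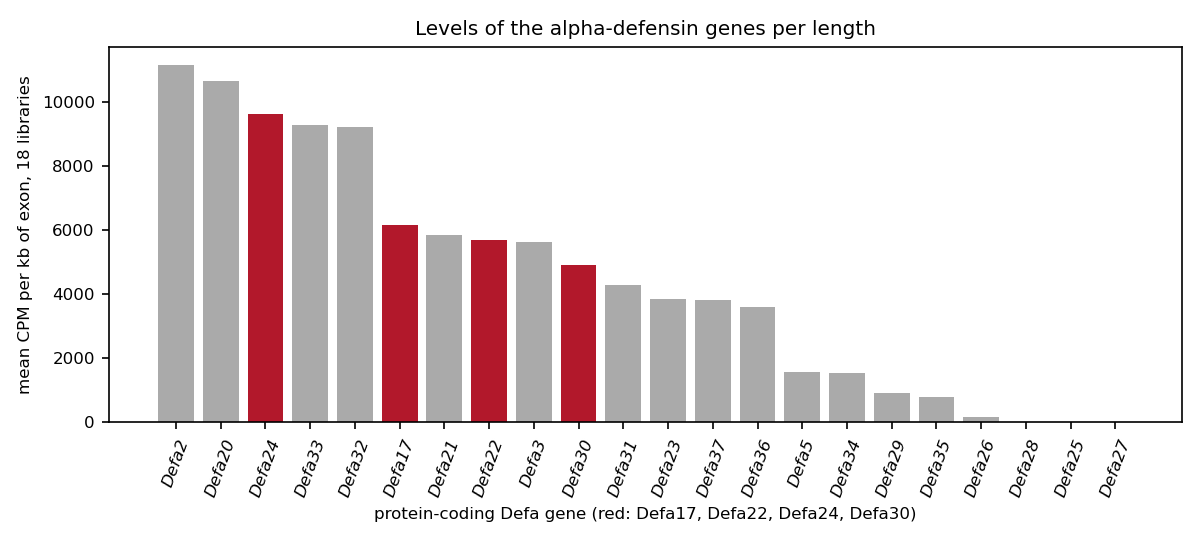
Mean level in CPM per kilobase of exon over the 18 libraries for the 22 protein-coding Defa genes, with Defa17, Defa22, Defa24 and Defa30 in red. Defa24 is the third tallest bar at 9641, and Defa30 at 4899 is the lowest of the 4.

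The shares of the defensin members in the family's counts varied far less than the family's total. The family's total differed 12.2-fold among virgin libraries, and the share of Defa24 in it stayed between 8.97% and 11.2% over all 18 libraries. Defa17 held 5.38 to 6.70% of it, Defa22 4.87 to 6.45% and Defa30 4.06 to 5.59%. These genes may share reads, and the part of that in the steadiness of their shares was not tested. Shares of some pseudogenes were small and varied more, from 0.0032 to 1.12% for Defa-ps17 and from 0.0021 to 0.54% for Defa-ps4.

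The low values of the third replicates ran through the whole set. All 10 members were lowest in pregnant replicate 3 and in virgin replicate 3 of their groups, and 9 of 10 in pseudopregnant replicate 3. On the log2 scale the third replicate lay below the mean of the other 5 by a median difference of -1.16 in pregnant (range -1.36 to -0.58), -0.53 in pseudopregnant (-0.996 to -0.37) and -2.63 in virgin libraries (-2.90 to -2.21). Stem cell scores of these libraries were -0.82, -0.30 and -1.01 in the same order, and epithelial scores 0.12, 0.06 and 0.18. Mitochondrial genes took 7.96%, 9.22% and 5.68% of their counts. The part of these in the members' low values was not tested. With the third replicate of every group left out, a setting chosen after the values were seen, the members' medians were -0.16, -0.47 and 0.35 in pregnant against virgin, pseudopregnant against virgin and pregnant against pseudopregnant libraries. Of the 10 members 0, 1 and 0 then had an unadjusted p under 0.05, and edgeR again called 0.

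Across the 18 libraries most members moved together. Pairs of defensins had a Pearson r of 0.979 to 0.994 and stayed at 0.967 or more without the third replicates. Defa24 and Itln1 had an r of 0.97 (Spearman's rho 0.87, both adjusted permutation p at most 4.5e-05 over the 45 pairs, and r = 0.93 without the 2 libraries farthest from the median). Mmp7 and Mptx2, which are not defensins, had an r of 0.94 (rho 0.91, adjusted permutation p of 1.8e-05 and 8.18e-05, and r = 0.86 without the 2 farthest libraries). Of the 45 pairs 43 had an adjusted p under 0.05 for r and 38 for rho. All points share the library and its depth.

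Lyz1, Mptx2 and Habp2 had a lower r with the mean of the other 9 members (0.87, 0.86 and 0.61) than the remaining 7 had (0.92 to 0.99), a difference that was not tested. That mean is weighted towards the defensins, which move closely together. With the mean of the non-defensin members instead, r was 0.92 for Lyz1, 0.82 for Mptx2 and 0.72 for Habp2. The remaining 7 then ran from 0.85 to 0.95, so Lyz1 was not lower by that measure. Lyz1 and Defa24 had an r of 0.82 (rho 0.76, adjusted permutation p of 0.000127 and 0.000779), which was 0.52 without virgin replicate 3 and pregnant replicate 3 and 0.40 without the third replicates. Per kilobase, Lyz1 stood at 0.148 to 0.389 of Defa24 in pregnant (median 0.32), at 0.201 to 0.481 in pseudopregnant (0.382) and at 0.169 to 0.401 in virgin libraries (0.32). The lowest ratios were those of the libraries with the highest defensins, pregnant replicate 1, virgin replicate 2 and pseudopregnant replicate 1. Defa24 is the divisor of this ratio, so high Defa24 lowers it by construction. Habp2 and Defa24 had an r of 0.52 (rho 0.24, adjusted permutation p of 0.0405 and 0.36), which rested on the libraries farthest out, since it was 0.15 without virgin replicate 3 and pregnant replicate 1. It was -0.31 without the third replicates. Habp2 and Lyz1 had an r of 0.86 (rho 0.71, adjusted permutation p of 4.82e-05 and 0.00205), and 0.66 without the 2 farthest libraries.

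**Figure D4:**
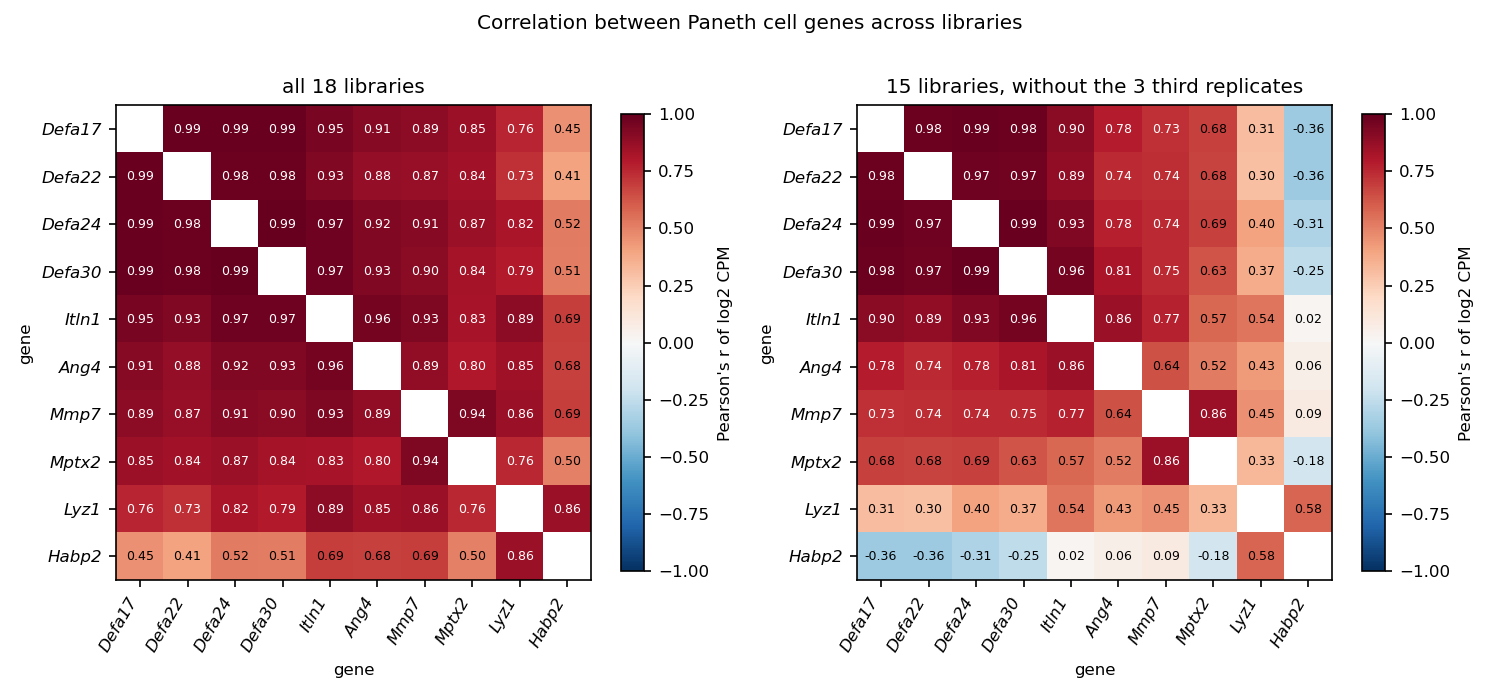
Pearson's r of log2 CPM between each pair of the 10 members, over all 18 libraries (left) and over the 15 libraries other than the third replicates (right). The block of defensins stays at 0.97 or more in both, and the row of Habp2 goes from 0.41 to 0.86 on the left and from -0.36 to 0.58 on the right.

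Set against scores of other cell types in 60 relations, all 10 members had a negative r with the absorptive enterocyte score over the 18 libraries, from -0.79 for Lyz1 to -0.63 for Defa22. Without the third replicates r ran from -0.68 for Lyz1 to -0.32 for Defa22. The rho of Defa17 had an adjusted permutation p of 0.0868, and within the pseudopregnant group r was 0.15 for Defa17 and 0.19 for Defa22. For Lyz1 r was -0.79 (rho -0.83, adjusted permutation p = 9e-04 for both, and -0.76 without the 2 farthest libraries). For Defa24 r was -0.69 (rho -0.65, adjusted permutation p of 0.00607 and 0.029, and -0.72 without the 2 farthest libraries), but -0.39 without the third replicates. The relations within groups were -0.78, -0.16 and -0.91 for Defa24 in pregnant, pseudopregnant and virgin libraries, each over 6 libraries. They were -0.80, -0.93 and -0.86 for Lyz1 in the same order. CPM values of a library share 1 total, so abundant genes of different cell types are not free to vary independently.

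Among the 10 members, the stem cell score, from 9 genes such as Lgr5 and Olfm4, had its highest r with Habp2. Habp2 was positively related to it (r = 0.89, rho 0.90, adjusted permutation p = 6e-04 for both), with r = 0.82 without the 2 farthest libraries and 0.86 without the third replicates. Lyz1 had an r of 0.82 with it (rho 0.69, adjusted permutation p of 0.001 and 0.017), and 0.66 without the 2 farthest libraries. Mmp7, Ang4, Itln1 and Mptx2 lay between, with r of 0.63, 0.60, 0.58 and 0.51, but 0.034 or less without the third replicates. Defa24 had an r of 0.44 (rho 0.24, adjusted permutation p of 0.138 and 0.425), and -0.35 without the third replicates. Within pregnant, pseudopregnant and virgin libraries r was 0.51, -0.29 and 0.76 for Defa24. It was 0.87, 0.88 and 0.97 for Habp2 in the same order. The difference between these correlations was not tested.

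**Figure D5:**
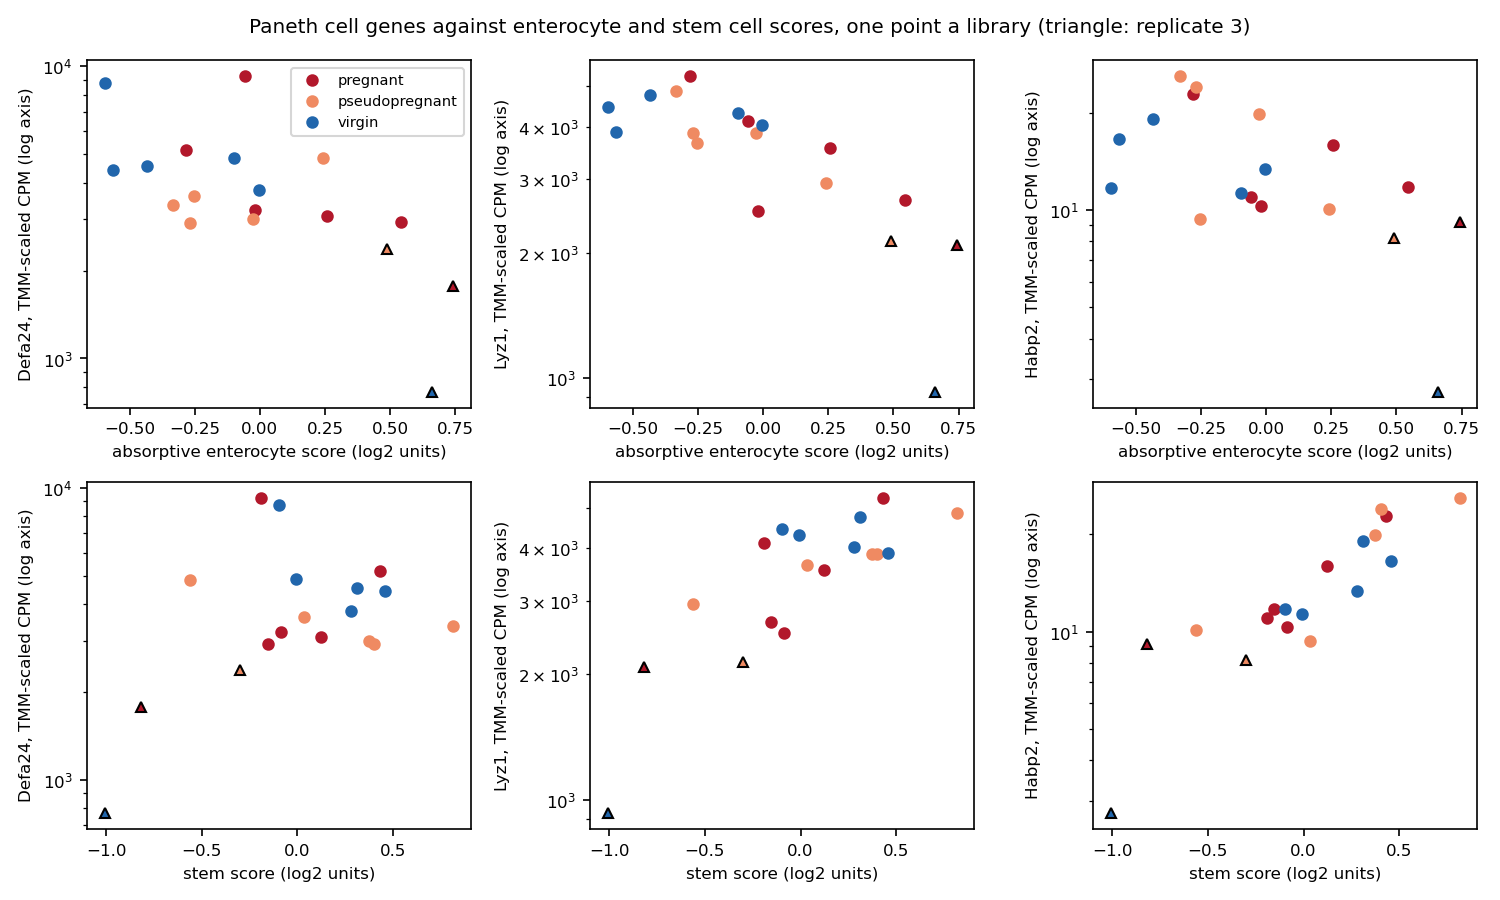
TMM-scaled CPM (log axis) of Defa24, Lyz1 and Habp2 against the absorptive enterocyte score (top) and the stem cell score (bottom), each the mean deviation of log2 CPM of its marker genes, 1 point a library, triangles for replicate 3. The third replicates lie towards the right of the top panels, at enterocyte scores of 0.49 to 0.74, and Habp2 climbs with the stem cell score, with r = 0.89.

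The other genes of the Paneth cell were measured alongside. Of 21 further products, such as colipase (Clps), phospholipases and niche ligands, 17 were tested. In pregnant against virgin libraries 9 were positive and 8 negative with a median of 0.02, in pseudopregnant against virgin libraries 7 and 10 with a median of -0.04, and in pregnant against pseudopregnant libraries 8 and 9 with a median of -0.02. Called genes numbered 0 of 17 in each comparison. The Notch ligand Dll4 was the only one with an unadjusted p under 0.05. It averaged 14.96 ± 4.95 CPM in pregnant, 14.5 ± 5.30 in pseudopregnant and 9.91 ± 1.48 in virgin libraries (SD, n = 6 each). All 6 pregnant and all 6 pseudopregnant libraries lay above the virgin median. Its fold change against virgin libraries was 0.59 (SE 0.22, edgeR adjusted p = 0.89) for pregnant and 0.54 (SE 0.22, edgeR adjusted p = 0.52) for pseudopregnant libraries. The potassium channel gene Kcnn4 stood at 26.9 ± 8.38 CPM in pregnant and 37.2 ± 11.4 in virgin libraries (-0.47, SE 0.23, edgeR adjusted p = 0.89), and its difference was -0.17 with the covariate. The growth factor gene Tgfa was at 0.19 (SE 0.14) in pregnant and 0.27 (SE 0.14) in pseudopregnant against virgin libraries, and Nod2, a sensor of bacterial cell walls, at 0.61 (SE 0.39) in the second of these, or 0.36 without virgin replicate 2 and 1.09 with limma-voom. Nod2 was near the floor, at 0.67 ± 0.24 CPM in pseudopregnant and 0.43 ± 0.26 in virgin libraries (SD, n = 6 each). Of smallest p in pregnant against pseudopregnant libraries were the Notch ligand Dll1 (0.22, SE 0.16), the phospholipase Pla2g2f (-0.40, SE 0.31) and the zinc transporter Slc30a2 (0.22, SE 0.18), all with an edgeR adjusted p of 0.92.

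Of 16 regulators of Paneth and secretory cell fate, all 16 were tested and 0 had an unadjusted p under 0.05 in any comparison. Fold changes were positive for 6 and negative for 10 in pregnant against virgin libraries, with a median of -0.14. They were positive for 10 and negative for 6 in pseudopregnant against virgin libraries, with a median of 0.08. In pregnant against pseudopregnant libraries 0 were positive and 16 negative, with a median of -0.19. In that comparison 19 of 20 absorptive enterocyte markers were positive (median 0.20), and 18 of 20 proliferation, 8 of 9 stem cell and 8 of 10 goblet cell markers were negative (medians -0.20, -0.35 and -0.24 in that order). In pregnant against virgin libraries 18 of 20 enterocyte markers were positive (median 0.39, 6 with an unadjusted p under 0.05), and 0 of 10 goblet, 0 of 10 enteroendocrine and 0 of 20 proliferation markers were (medians -0.29, -0.42 and -0.21). Enterocyte markers were positive for 15 of 20 in pseudopregnant against virgin libraries (median 0.17), where 7 of 10 goblet and 9 of 10 enteroendocrine markers were negative (medians -0.13 and -0.27). The part of these in the regulators' values was not tested. Spdef, a transcription factor needed for maturing Paneth and goblet cells, stood at 14.6 ± 3.48 CPM in pregnant, 14.8 ± 1.96 in pseudopregnant and 19.2 ± 7.42 in virgin libraries (SD, n = 6 each). It differed from virgin libraries by -0.40 (SE 0.23) in pregnant and -0.38 (SE 0.23) in pseudopregnant ones, with edgeR adjusted p of 0.89 and 0.52. Atoh1, the master factor of secretory fate, was at -0.32 (SE 0.22) and Sox9, required for Paneth cells to form, at -0.38 (SE 0.29) in pregnant against virgin libraries. Spdef was at -0.23 in both comparisons without virgin replicate 2, Atoh1 at -0.17 without virgin replicate 4 and -0.12 with the covariate, and Sox9 at -0.19 without virgin replicate 2 and 0.028 with the covariate. The Wnt receptor Fzd5 was at 0.34 (SE 0.17) and Ern1, a sensor of endoplasmic reticulum stress, at 0.41 (SE 0.24) in pseudopregnant against virgin libraries. Gfi1, a repressor that keeps secretory cells from the endocrine fate, was at -0.39 (SE 0.27), the sorting receptor Ephb2 at -0.37 (SE 0.28) and Foxa1 at -0.24 (SE 0.18) in pregnant against pseudopregnant libraries.

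The 11458 genes outside the members and without a Defa symbol were ranked by likeness to the members' mean deviation over the 18 libraries. They were led by predicted genes of chromosome 8, Gm14851 (r = 0.99), Gm15293 (0.97), Gm7849 (0.96) and Gm7861 (0.96). Next came Bambi, a decoy receptor of TGF-beta signalling, then Gm15292 of chromosome 8 and Clps (0.95 each). Tmed6, Nupr1 (0.94 each) and Wnt3 (0.93) completed the first 10. Whether the Gm genes belong to the alpha-defensin family was not tested. Clps, Nupr1 and Wnt3 were also in the list of further Paneth cell products. The median r of the 11458 genes was -0.02, and 178 had an r above 0.8. Wnt3, a Wnt ligand made by Paneth cells, stood at 4.71 ± 1.65 CPM in pregnant, 5.05 ± 1.55 in pseudopregnant and 5.51 ± 2.21 in virgin libraries (SD, n = 6 each). It was at -0.23 (SE 0.31) in pregnant and -0.12 (SE 0.31) in pseudopregnant against virgin libraries, with edgeR adjusted p of 0.91 and 0.85.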

How the data were processed

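RNA of sorted ileal epithelium was sequenced after poly(A) enrichment with a directional kit, per the labels' protocols. The deposited tables, 1 for each library, list raw read counts by Ensembl gene without normalization. Per the submitters' processing notes, the tools were HISAT2 2.0.4, Subread 2.0.0 with featureCounts, FastQC 0.11.5 and DESeq2 1.24.0, and the build was GRCm38; strand setting and annotation release: not given in the sources used here. GENCODE M21 named 47310 of 47729 genes, and counts of the 419 without a name came to 0.029% or less in any library. Genes were filtered with filterByExpr (14675 left), scaled by TMM and fitted with edgeR 4.0.16 (R 4.3.3, glmQLFit, legacy = FALSE, 1 mean per group, 18 libraries). Tests were two-sided, with Benjamini-Hochberg adjustment over all genes at 0.05. The fit was tested on simulated data with the spread usual for a gene's level, which does not cover genes as variable as the members. SE is the fold change over the root of F. For the family row, Defa genes were summed before filtering.

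Scores average each list's log2 CPM (prior count 2) minus each gene's mean. Correlations used 100000 permutations, with adjustment within 45 or 60 relations, the smallest possible p being 1e-05. Named by rule were the members, the 3 genes of smallest p per list and comparison, and the 10 genes of highest r with the members' mean. The members, lists and tests were chosen with earlier results of these data known. Of 3 motifs searched, the E box is not reported. No 2 libraries of a group agreed within sampling error (chi-square over its degrees of freedom at least 32.5). Alternatives are in the closing section. Leaving out virgin replicates 2 and 3 and pregnant replicate 1 together was tried once and dropped, because it selects libraries by their outcome.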

Additional observations from a re-analysis of the deposited data

Results flagged for a closer look

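Of 30 sets of 6 libraries (10 members in 3 groups), 3 held a library whose gap to the rest passed the 95% critical value of Dixon's test, which chance gives in about 1 of 20 sets. Gaps were taken on unlogged CPM, where low values stand out less than on the log2 scale. Lyz1 stood at 929 CPM in virgin replicate 3, with the next virgin library at 3898 CPM. That library was not low for Lyz1 alone. All 10 members lay below the mean of the other virgin libraries there, with log2 differences of -2.90 to -2.21. Defa17 stood at 3076 CPM in pseudopregnant replicate 1, with the next at 2038 CPM. Defa22 stood at 3145 CPM in the same library, with the next at 1761 CPM. Defa17 and Defa22 share windows with other Defa genes, and the 3 sets are not independent.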

How the results depend on the processing

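No member was called in any of the 3 comparisons under any alternative run: DESeq2's size factors, upper quartile scaling, members and Defa genes left out of library sizes, no low-count filter, a filter at 1 CPM in 6 libraries, a robust fit, limma-voom (limma 3.58.1), DESeq2 1.42.0, only the 12 libraries compared, the replicate number as a block, a villus-minus-crypt score (enterocyte minus proliferation score) as covariate, each library left out, and, added after seeing the data, all libraries of replicate number 3 left out. Over all genes DESeq2 called 5, 0 and 0 in pregnant against virgin, pseudopregnant against virgin and pregnant against pseudopregnant libraries, and limma-voom called 0 in each. Signs were less stable, and the cause was not tested. In pregnant against virgin libraries the value of Itln1 (-0.0022) was 0.0054 with DESeq2's size factors and with DESeq2, 0.0091 in the fit of 12 libraries and 0.16 with limma-voom. With limma-voom Ang4 was 0.095, Defa17 0.040, Defa24 0.0096 and Defa30 0.087 in that comparison, and Lyz1 was 0.051 and Mmp7 0.13 in pseudopregnant against virgin libraries. With the covariate, in pregnant against virgin libraries, Lyz1 was 0.34, Mmp7 0.32, Itln1 0.49, Ang4 0.42, Mptx2 0.044, Defa17 0.37, Defa22 0.19, Defa24 0.36, Defa30 0.44, Sox9 0.028 and the summed Defa row 0.21. In pseudopregnant against virgin libraries it gave Lyz1 0.15, Mmp7 0.25, Itln1 0.099 and Mptx2 0.16, and in pregnant against pseudopregnant ones Lyz1 0.19, Mmp7 0.073 and Habp2 0.10. Without the libraries of replicate number 3 Habp2 was -0.0030 in pregnant against virgin libraries.

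With the replicate number as a block, Itln1 was 0.080 in pregnant against virgin and Lyz1 0.020, Mmp7 0.10 and Mptx2 0.0096 in pseudopregnant against virgin libraries; 979, 1988 and 618 genes then had an unadjusted p under 0.05, against 540, 1375 and 345 without it, and 4 of 18 libraries correlated best with their own number. Deviations of same-numbered libraries correlated at -0.588 to 0.785 over 18 pairs, 11 above 0.1, and the pairs of replicate number 3 stood at 0.443 to 0.785. These values do not decide whether same-numbered libraries are pairs. The labels state no pairing, so the main fit had no block. The block changed no call of a member. With no filter, where 27470 genes were tested, the counts were 989, 1966 and 844.

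With each library left out in turn, values in pregnant against virgin libraries ran from -0.31 to 0.051 for Mmp7, -0.23 to 0.25 for Itln1, -0.37 to 0.040 for Ang4, -0.45 to 0.25 for Defa17, -0.57 to 0.18 for Defa22, -0.48 to 0.20 for Defa24, -0.48 to 0.37 for Defa30, -0.10 to 0.28 for Habp2 and -0.55 to 0.14 for the summed Defa row. In pseudopregnant against virgin libraries they ran from -0.27 to 0.041 for Lyz1 and -0.23 to 0.12 for Mmp7. In pregnant against pseudopregnant libraries they ran from -0.25 to 0.033 for Lyz1, -0.27 to 0.061 for Mmp7, -0.033 to 0.50 for Defa24 and -0.017 to 0.54 for the summed Defa row. Counts of genes at an unadjusted p under 0.05 ran from 223 (without pregnant replicate 4) to 1953 (without virgin replicate 3), from 540 (without pseudopregnant replicate 5) to 3390 (without pseudopregnant replicate 1) and from 120 (without pseudopregnant replicate 4) to 1568 (without pseudopregnant replicate 1). The least abundant member had at least 79 reads a library.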
